A study of Rattus norvegicus with 6 samples.

Results

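The genes described here are 6 markers and drivers of cell division, Mki67, Top2a, Cdk1, Ccnb1, Pcna and Ccnd1, followed in RNA from rat kidney in a model of focal segmental glomerulosclerosis (FSGS), the scarring of segments of some glomeruli, the filters of the kidney. The deposited table lists genes by Ensembl ID without names, so the members were found by ID from a fixed list and checked against the chromosome in the table. All 6 IDs were present on the chromosome given for them, 6 of 21986 genes in the table. The RefSeq gene of the same symbol lay on the same chromosome in 6 of 6 cases.

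All animals were male Wistar rats of wild-type genotype. The 3 control samples came from rats that received saline. The 3 FSGS samples came from rats whose left kidney was removed and which received adriamycin, an anthracycline that poisons topoisomerase II and damages DNA, by tail vein in 2 injections, 5 mg/kg 7 days and 3 mg/kg 28 days after the operation. No surgery is stated for the controls, so the design leaves the loss of a kidney and adriamycin joined, and their parts cannot be told apart. The sources used here give neither age nor the day of tissue collection. Whether the 3 libraries of a group come from 3 rats is not spelled out in the labels, so the p-values speak of the spread among libraries, part of which may be technical.

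Dividing cells use these genes in a fixed order. Growth signals induce cyclin D1, which drives the exit from G1 phase. PCNA, the sliding clamp of DNA polymerase, acts in S phase and also in DNA repair, and topoisomerase IIα, Ki-67, the kinase CDK1 and its partner cyclin B1 build up through S and G2 phase and serve mitosis. In the healthy adult kidney few tubule cells divide, and after injury surviving tubule cells re-enter the cycle.

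The values are FPKM, fragment numbers scaled by the authors for transcript length and for the size of the library, so levels can be compared between genes. Depth is unknown, and no counting error is given. Genes with a mean of at least 0.5 FPKM were tested with limma on log2(FPKM + 1), 14139 in all. All 6 members passed this filter, and the control mean alone would have passed it in all 6. Adjustment was by Benjamini-Hochberg over these 14139 genes, and 0.05 was the threshold. FSGS and control kidneys differed in 44.0% of them, 27.0% higher and 17.0% lower in FSGS. The balance moved with the scaling of the columns, from 3814 higher and 2408 lower genes as deposited to 3463 and 3485 with median-of-ratios scaling. It was 3620 and 3386 with quantile normalization, 2012 and 3191 rescaled to TPM, and 5606 and 2298 rescaled without mitochondrial and the 20 most abundant nuclear genes. The column totals did not overlap, running from 614047 to 691777 FPKM in controls and from 754892 to 824403 FPKM in FSGS. Mitochondrial genes held 51.6% to 62.9% of the total in the controls and 64.0% to 71.7% of it in FSGS (two-sided exact permutation p = 0.1 for each, the smallest possible with 3 against 3).

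Of the 6 members, 4 rose in FSGS and 1 fell, beside 27.0% and 17.0% of all genes tested. Mki67, Top2a, Cdk1 and Ccnb1, the genes of late S phase, G2 and mitosis, rose 3.29-fold to 4.41-fold in mean FPKM. Ccnd1, the G1 cyclin, fell by 34.1%. Pcna was 10.9% higher and did not pass the test. Under 4 other column scalings the log2 change was 0.98 to 1.20 for Mki67, 1.00 to 1.22 for Top2a, 1.14 to 1.39 for Cdk1 and 0.71 to 0.93 for Ccnb1, and each passed the test in all 4. As deposited, all 6 genes were without overlap between the groups (5 higher and 1 lower in FSGS), as were 55.6% of all genes tested. With median-of-ratios scaling or TPM, Pcna overlapped and the other 5 did not. The members' median log2 change was 1.00, and that of all genes tested was 0.11. In bulk tissue, a larger number of cells that carry these transcripts and more RNA per such cell cannot be told apart. Cell division itself was not measured.

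**Figure D1:**
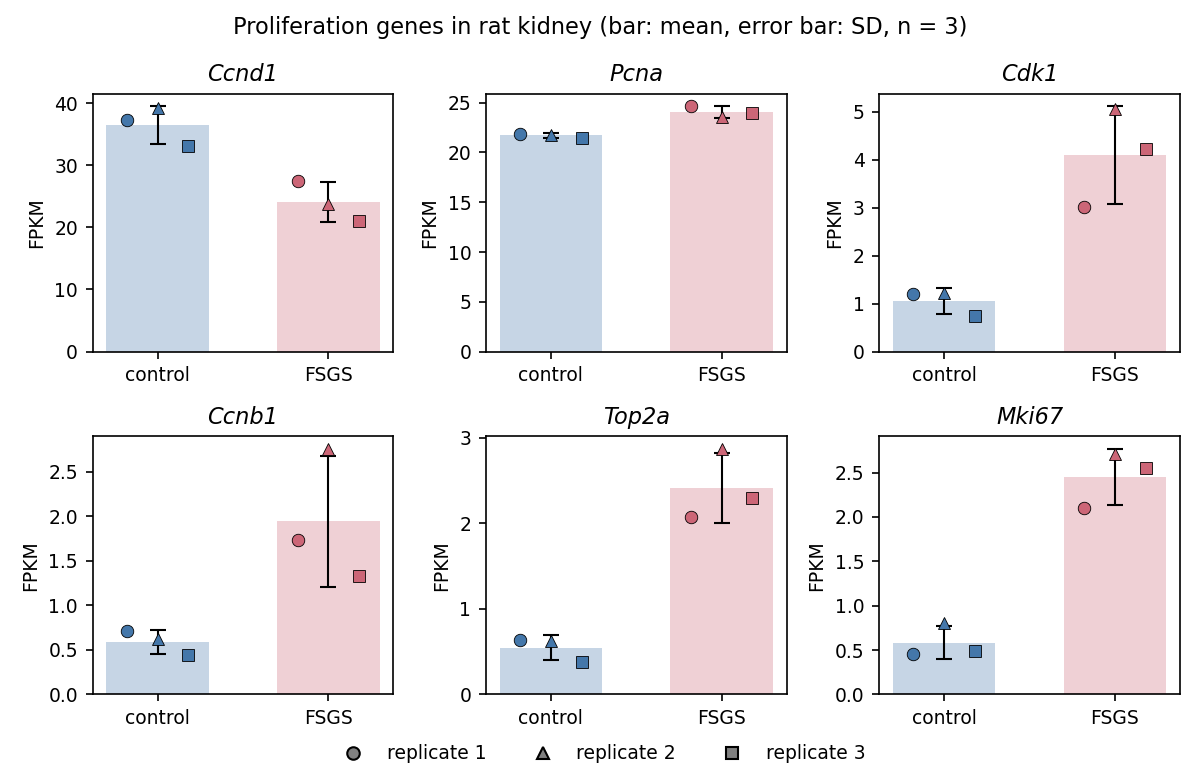
FPKM of the 6 genes in each library; bars are group means, error bars the SD (n = 3), and symbols mark the replicate number, with a separate y axis from 0 in each panel. The FSGS libraries lie above all controls in every panel except Ccnd1, where they lie below, and in Pcna the gap is small beside the level.

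The promoters of the 4 genes that rose are shown, with that of Pcna beside them, because mitotic genes are known to share a control region, paired CCAAT boxes bound by NF-Y and a cell cycle genes homology region (CHR, TTTGAA) bound by MuvB complexes. RefSeq windows on GRCr8, reaching from 250 bases before to 50 bases after a start site, were matched by symbol for 5 of 6 members; Ccnd1 had no match. In the sequences below, written 5′ to 3′ on the gene's strand, capitals mark matches on either strand to the CCAAT box (ATTGG when read on the other strand), to the CHR (TTCAAA on the other strand) or to 1 of 4 strings that the E2F factors of S-phase genes are known to bind (TTTCCCGC, TTTCGCGC, TTTGCCGC or TTTGGCGC). Bases inside the RefSeq gene are left out, except for 30 bases of Mki67, whose window lies wholly within the span of its RefSeq gene.
Top2a (chr10:84473094-84473343, minus strand): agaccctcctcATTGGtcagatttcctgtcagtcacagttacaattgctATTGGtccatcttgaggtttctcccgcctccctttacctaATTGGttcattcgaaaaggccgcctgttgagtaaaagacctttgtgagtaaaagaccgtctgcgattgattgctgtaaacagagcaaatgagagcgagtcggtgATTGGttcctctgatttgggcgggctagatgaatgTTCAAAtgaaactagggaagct
Cdk1 (chr20:19265043-19265251, plus strand): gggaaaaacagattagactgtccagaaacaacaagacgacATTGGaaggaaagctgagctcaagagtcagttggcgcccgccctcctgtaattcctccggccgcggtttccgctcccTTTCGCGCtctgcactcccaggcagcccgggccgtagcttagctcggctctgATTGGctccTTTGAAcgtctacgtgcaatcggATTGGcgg
Ccnb1 (chr2:33655226-33655475, minus strand): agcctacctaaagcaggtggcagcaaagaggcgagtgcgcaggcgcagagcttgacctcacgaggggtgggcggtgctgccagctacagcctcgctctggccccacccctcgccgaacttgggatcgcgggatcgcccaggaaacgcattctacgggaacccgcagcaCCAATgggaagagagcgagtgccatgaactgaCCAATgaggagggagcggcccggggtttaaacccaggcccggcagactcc
Mki67 (chr1:199952681-199952710, minus strand): TTTGAAccgccgttttcgTTTGAATTGGgc
Pcna (chr3:139955821-139956070, minus strand): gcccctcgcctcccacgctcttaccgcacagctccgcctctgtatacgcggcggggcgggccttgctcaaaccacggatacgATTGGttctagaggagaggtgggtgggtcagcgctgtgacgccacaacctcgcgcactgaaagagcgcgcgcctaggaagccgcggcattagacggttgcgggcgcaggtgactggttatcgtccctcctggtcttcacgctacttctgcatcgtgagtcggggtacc

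The windows of Mki67 and Top2a each held 4 CCAAT matches, that of Cdk1 held 3, that of Ccnb1 held 2 and that of Pcna held 1. Of all 33469 windows of this length, 37.5% held at least 1 CCAAT, 11.2% at least 2, 3.02% at least 3 and 0.675% at least 4. TTTGAA was found at 2 positions in Mki67 and in Cdk1 and at 1 position in Top2a, and was not in the windows of Ccnb1 and Pcna; 18.3% of all windows held at least 1. In Mki67 the second TTTGAA and the neighbouring ATTGG share 1 base. Cdk1 alone among the 5 held an E2F string, TTTCGCGC, at -133 to -126 from the start site; 2.14% of all windows held at least 1 of the 4. None of the 5 windows held TATAAA, which 14.2% of all windows did. These are exact matches of letters, not measured binding. A site spelled otherwise than the strings searched would not be found, so a window without a match may still hold such a site. The map of motif matches shows where they lie.

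**Figure D2:**
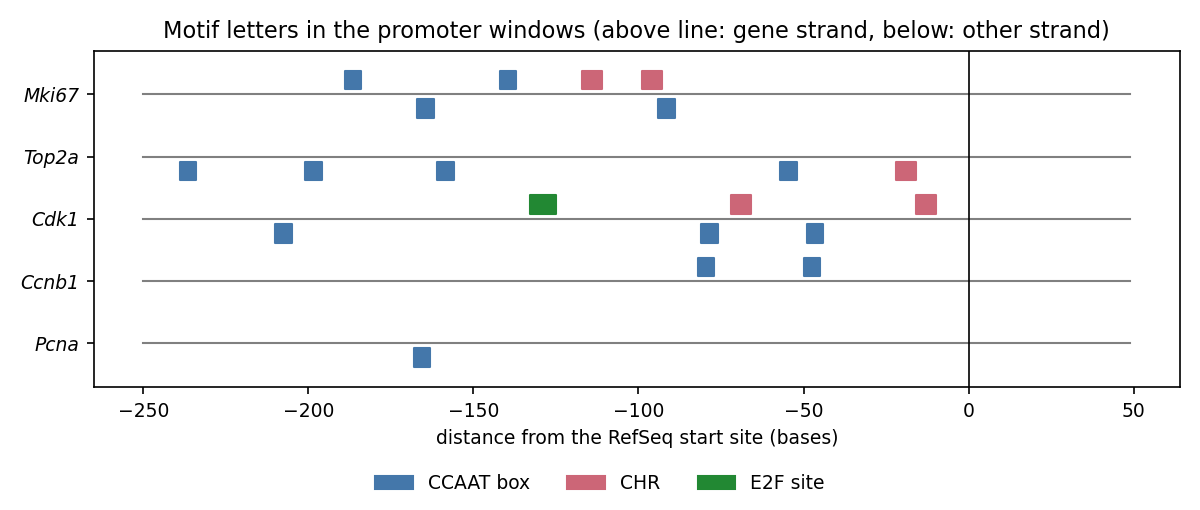
Positions of motif matches in the RefSeq promoter windows of 5 genes, with distance from the start site in bases on the x axis; boxes above a line are on the gene's strand and boxes below it on the other strand. The windows of Mki67, Top2a, Cdk1 and Ccnb1 hold 2 to 4 CCAAT matches each, and that of Pcna holds 1.

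Mki67 (ENSRNOG00000028137, chromosome 1) encodes Ki-67, a protein that coats mitotic chromosomes and is the usual histological marker of cycling cells. It stood at 0.46, 0.80 and 0.49 FPKM in control libraries 1, 2 and 3. FSGS 1, 2 and 3 had 2.1, 2.71 and 2.55 FPKM. The lowest FSGS library was 2.63 times the highest control. The means were 0.583 ± 0.188 and 2.45 ± 0.316 FPKM (SD, n = 3), a 4.21-fold difference. On the log2(FPKM + 1) scale the change was 1.13 ± 0.15 (SE; limma adjusted p = 0.000474).

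Top2a (ENSRNOG00000053047, chromosome 10) encodes topoisomerase IIα, which untangles sister chromatids before they separate and is a target of adriamycin. Its level was 0.64, 0.62 and 0.38 FPKM in control libraries 1, 2 and 3 and 2.07, 2.87 and 2.30 FPKM in FSGS libraries 1, 2 and 3. Every FSGS library was above every control, by at least 3.23 times. The mean rose 4.41-fold, the largest ratio among the 6 genes, from 0.547 ± 0.145 to 2.41 ± 0.412 FPKM (SD, n = 3). The log2(FPKM + 1) change was 1.14 ± 0.15 (SE; limma adjusted p = 0.000471).

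Cdk1 (ENSRNOG00000000632, chromosome 20) encodes the kinase that starts mitosis. Control libraries 1, 2 and 3 had 1.21, 1.22 and 0.75 FPKM, and FSGS libraries 1, 2 and 3 had 3.01, 5.05 and 4.23 FPKM. FSGS 1 was the lowest and FSGS 2 the highest of its group, and the lowest FSGS library was 2.47 times the highest control. The means were 1.06 ± 0.269 and 4.10 ± 1.03 FPKM (SD, n = 3), a 3.86-fold difference. Its log2(FPKM + 1) change of 1.30 ± 0.18 (SE; limma adjusted p = 0.000713) was exceeded by 748 of the 14139 genes tested.

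Ccnb1 (ENSRNOG00000058539, chromosome 2) encodes cyclin B1, which activates CDK1 and is destroyed as mitosis ends. It had 0.71, 0.62 and 0.44 FPKM in control libraries 1, 2 and 3, and 1.74, 2.76 and 1.33 FPKM in FSGS libraries 1, 2 and 3. The groups did not overlap, and FSGS 3, the lowest, was 1.87 times the highest control. The spread within FSGS was wide, with a mean of 1.94 ± 0.736 against 0.590 ± 0.137 FPKM in controls (SD, n = 3). The log2(FPKM + 1) change of 0.86 ± 0.19 (SE; limma adjusted p = 0.00632) was the smallest of the 4 rises, and it ranged from 0.67 without FSGS 2 to 1.02 without FSGS 3.

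Pcna (ENSRNOG00000021264, chromosome 3) was far more abundant than the 4 genes above. Controls 1, 2 and 3 had 21.9, 21.77 and 21.45 FPKM, and FSGS 1, 2 and 3 had 24.69, 23.53 and 24.0 FPKM. As deposited the groups did not overlap, which was also the case with FSGS higher in 34.6% of all genes tested. With median-of-ratios scaling they did, from 21.6 to 25.0 in controls and from 22.1 to 24.8 in FSGS, and so they did by TPM, from 31.0 to 35.7 in controls and from 29.1 to 32.7 in FSGS. The means as deposited were 21.7 ± 0.232 and 24.1 ± 0.583 FPKM (SD, n = 3). The small control spread also depended on the scaling: as a share of the control mean, the SD was 1.07% in the deposited values, 7.01% by TPM and 8.21% with median-of-ratios scaling. The log2(FPKM + 1) change was 0.14, with a 95% interval from -0.11 to 0.40 (limma adjusted p = 0.335), and lay 0.03 above the median of all genes. Its direction depended on the scaling. The change was 0.01 with median-of-ratios scaling, 0.16 with quantile normalization and -0.13 rescaled to TPM. It was 0.27 rescaled without mitochondrial and the most abundant genes, the setting in which it passed the test (limma adjusted p = 0.0382). The median change of all genes tested also moved with the scaling. That median was 0.007 with median-of-ratios scaling, 0.006 with quantile normalization and -0.12 rescaled to TPM. Rescaled without mitochondrial and the most abundant genes it was 0.22, and 39.6% of all genes tested were called higher there.

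Ccnd1 (ENSRNOG00000020918, chromosome 1) encodes cyclin D1, the partner of CDK4 and CDK6 that links growth signals to the cycle. It went the other way, from 37.2, 39.15 and 33.15 FPKM in control libraries 1, 2 and 3 to 27.44, 23.76 and 21.0 FPKM in FSGS libraries 1, 2 and 3. All FSGS libraries were below all controls, as in 21.0% of all genes tested. The means were 36.5 ± 3.06 and 24.1 ± 3.23 FPKM (SD, n = 3). The log2(FPKM + 1) change was -0.59 ± 0.14 (SE; limma adjusted p = 0.00973), and 14.0% of genes tested had a larger decrease. It was negative and passed the test in all 4 rescalings, from -0.87 rescaled to TPM to -0.45 rescaled without mitochondrial and the most abundant genes.

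**Figure D3:**
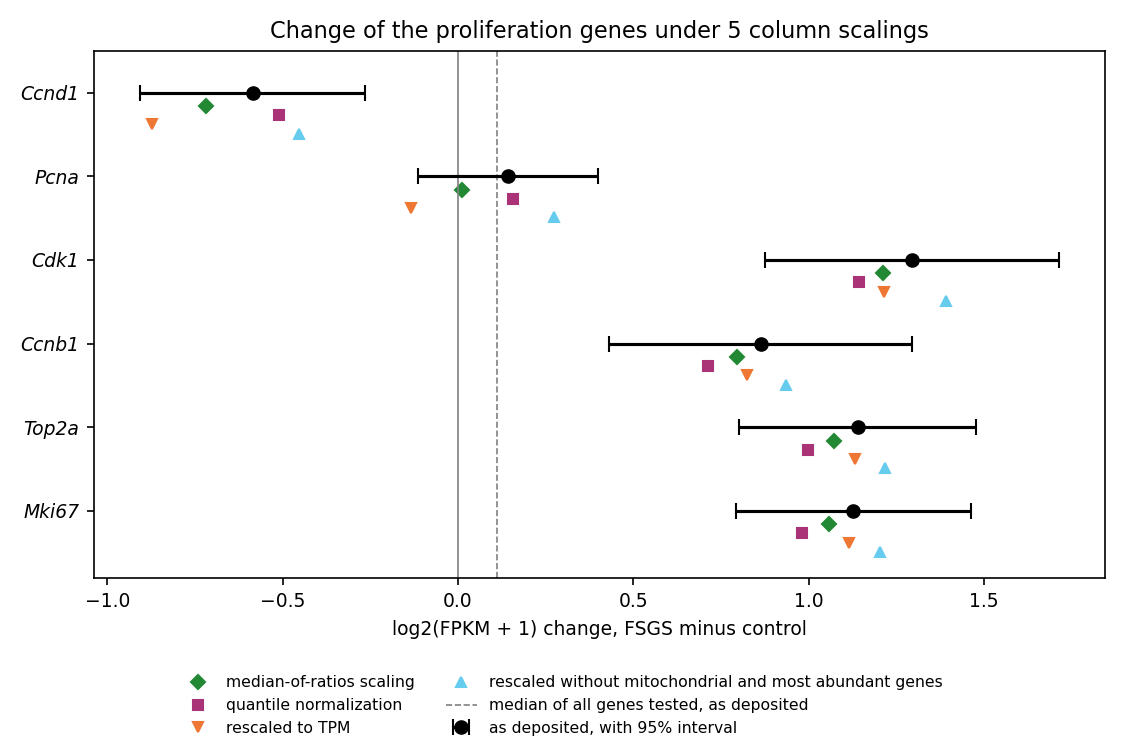
Change of each gene on the log2(FPKM + 1) scale, FSGS minus control, with the 95% interval from limma (black) and the change under 4 other column scalings (coloured symbols); the dashed line is the median of all genes tested, 0.11. Mki67, Top2a, Cdk1 and Ccnb1 lie to the right of 0 and Ccnd1 to the left under all 5, while Pcna lies on both sides.

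The gap between Ccnd1 and Pcna narrowed in FSGS. In controls Ccnd1 was above Pcna in every library, and in FSGS the mean of each was 24.1 FPKM, with the Pcna values inside the Ccnd1 range. Ccnd1 was still above Pcna in FSGS 1 (27.44 against 24.69 FPKM) and FSGS 2 (23.76 against 23.53 FPKM). Only in FSGS 3 was it below (21.0 against 24.0 FPKM). Cdk1 was the highest of the 4 mitotic genes in every library. Its control range of 0.75 to 1.22 FPKM overlapped that of Mki67, at 0.46 to 0.80 FPKM, while its FSGS range of 3.01 to 5.05 FPKM was clear of Mki67, at 2.1 to 2.71 FPKM, and of Top2a, at 2.07 to 2.87 FPKM. Mki67, Top2a and Ccnb1 overlapped one another in each group. Among the genes tested, the control means of the 4 stood at percentiles 5.52 to 14.3 and their FSGS means at percentiles 22.5 to 40.0, so their levels were below the median gene in both groups. Pcna stood at percentile 83.7 in controls and 85.4 in FSGS, and Ccnd1 at 90.2 and 85.4.

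Ratios of plain FPKM between members within a library do not depend on a factor applied to the whole column. Relative to Pcna, Cdk1 stood at 0.0553, 0.0560 and 0.0350 in control libraries 1, 2 and 3 and at 0.122, 0.215 and 0.176 in FSGS libraries 1, 2 and 3. In FSGS the mean ratio to Pcna was 3.80 times the control mean for Mki67, 4.00 times for Top2a, 3.51 times for Cdk1 and 2.99 times for Ccnb1. The Ccnd1 to Pcna ratio was 1.70, 1.80 and 1.55 in control libraries 1, 2 and 3 and 1.11, 1.01 and 0.875 in FSGS libraries 1, 2 and 3. All 5 ratios to Pcna were without overlap between the groups, as were 55.7% of the ratios of all other tested genes to Pcna.

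**Figure D4:**
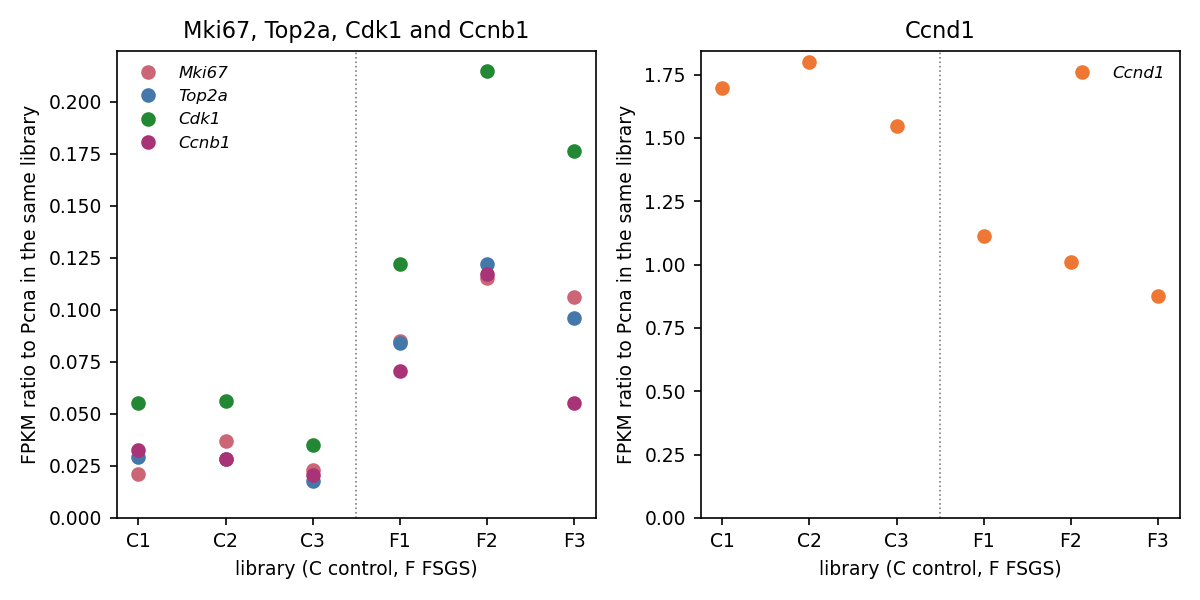
FPKM of each gene divided by the FPKM of Pcna in the same library, for 3 control (C) and 3 FSGS (F) libraries, with linear axes from 0. Cdk1 has the highest ratio of the 4 genes on the left in every library, up to 0.215 in FSGS 2, and the Ccnd1 ratio on the right is at most 1.11 in FSGS and at least 1.55 in controls.

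Of the 15 pairs of members, 11 had log2 ratios of FPKM + 1 without overlap between the groups. Such ratios did not overlap for 78.6% of all pairs of a member and another tested gene. Because of the added 1, these log2 ratios are not free of a factor applied to the whole column. Each of the 11 had a two-sided exact permutation p of 0.1, the smallest possible, and an adjusted p of 0.136 over the 15 pairs, so no pair could pass 0.05. On this scale the pairs that overlapped were Mki67 with Top2a, Cdk1 or Ccnb1, and Top2a with Cdk1. The Mki67 to Top2a ratio had the smallest difference between group means, -0.01 (exact permutation p = 0.9). In FPKM without a pseudocount it was 0.719, 1.29 and 1.29 in control libraries 1, 2 and 3 and 1.01, 0.944 and 1.11 in FSGS libraries 1, 2 and 3.

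The pseudocount decided the overlap of 2 pairs. Without it, the Top2a to Cdk1 ratio was 0.529, 0.508 and 0.507 in control libraries 1, 2 and 3 and 0.688, 0.568 and 0.544 in FSGS libraries 1, 2 and 3, higher in FSGS and without overlap (exact permutation p = 0.1). With a pseudocount of 1 its difference was -0.16 on the log2 scale, and the groups overlapped (exact permutation p = 0.3). Cdk1 and its partner Ccnb1 had a ratio of 1.70, 1.97 and 1.70 in control libraries 1, 2 and 3 and 1.73, 1.83 and 3.18 in FSGS libraries 1, 2 and 3, without a pseudocount. FSGS 3 stood apart here, with the lowest Ccnb1 level of its group beside a Cdk1 level near the group mean. On the log2 scale with a pseudocount of 1 the groups did not overlap for this pair (exact permutation p = 0.1), while without a pseudocount they did (exact permutation p = 0.5). Within FSGS the members did not share 1 order of libraries: FSGS 2 was highest in Top2a, Cdk1 and Ccnb1 and FSGS 1 was highest in Ccnd1, as deposited and under the 3 rescalings by a factor per column. The highest FSGS library in Mki67 and in Pcna changed with the scaling (FSGS 2 and FSGS 1 as deposited, FSGS 3 for both with median-of-ratios scaling). In controls, replicate 3 was lowest in Top2a, Cdk1 and Ccnb1 under all of these scalings. For Pcna it was the lowest control as deposited and the highest with median-of-ratios scaling.

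RefSeq lists 5 pseudogene entries named after 3 of the members, 3 for Pcna, 1 for Cdk1 and 1 for Mki67. How the authors assigned fragments shared with such copies is not given here, so the levels of these 3 genes are uncertain to that extent. The cells that carry the transcripts were not identified, since markers of tubule, immune and other cells could not be paired with the IDs in the table.

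The genes most like the members were sought by correlation, over the 6 libraries, with the mean of the members' standardized log2(FPKM + 1) values, Ccnd1 included. The closest 2 of 14133 other genes were ENSRNOG00000016846 on chromosome 5 and ENSRNOG00000051216 on chromosome X, each with a Pearson r of 0.998. ENSRNOG00000016846 had 3.27, 3.67 and 2.76 FPKM in control libraries 1, 2 and 3 and 6.10, 6.87 and 5.71 FPKM in FSGS libraries 1, 2 and 3. ENSRNOG00000051216 had 2.73, 2.73 and 2.03 FPKM in control libraries 1, 2 and 3 and 6.45, 7.64 and 6.01 FPKM in FSGS libraries 1, 2 and 3. With 6 libraries in 2 separate groups such values are common: 1756 genes had an r of at least 0.95.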

How the data were processed

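RNA of 3 control and 3 FSGS rat kidney samples was measured by poly(A)-enriched, strand-marked, paired-end sequencing, per the labels' protocols. Per the file headers, the authors deposited FPKM, with at most 2 decimals. The submitters' processing notes name HISAT2 2.2.1, StringTie 2.1.6 and cutadapt 1.9, and also edgeR and DESeq2, without a role for any. The genome build and annotation are not given in the sources used here.

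Columns were matched to samples by the short name in the description, and groups were taken from the titles (these also read untreated for all 6, although injections are listed as the treatment). Depth is unknown. Steps of whole reads were sought in ratios between libraries, among genes with 0 FPKM in 2 or more libraries. The genes compared had at least 0.3 FPKM in both libraries, 16 to 136 genes per pair. At most 12.8% of genes fell in any window of 0.05 on the log2 scale. Rounding to 2 decimals can blur steps this narrow at low values, so the check cannot tell the depth. FSGS was compared with control by limma 3.58.1 in R 4.3.3 on log2(FPKM + 1), with a mean-variance trend and group as the only term, for genes with a mean of at least 0.5 FPKM. Fold changes on this scale understate the change of low genes. The procedure was tested on simulated data in which, unlike here, few genes were changed. It recovered 64 of 100 genes changed by 1 log2 unit, of which 95 were tested. Of 100 genes changed by 2 log2 units, 93 were tested and 90 recovered. Rises and falls were pooled and values could not go below 0, so these are not recovery rates for rises alone. There were 10 false calls with 13757 genes tested, so changes of 1 log2 unit or less can be missed. Ratios between members were tested by exact permutation, two-sided. The 18 alternatives to the fit changed the pseudocount, the filter, the scaling or a limma option, added the replicate number as a block, or left out 1 library.

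The members, the lists and the tests were chosen with earlier results of these data known. All 6 members are named, with the 2 other genes most like them. Gene lists of the cell cycle and its inhibitors and cell type markers, set by symbol, were not analysed here, because the RefSeq table (GRCr8) carried an Ensembl ID in 0 of 47357 rows. The labelled tissue was not checked against markers for the same reason. Promoter sequences are from RefSeq. Figures were drawn with matplotlib 3.10.9.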

Additional observations from a re-analysis of the deposited data

How the results depend on the processing

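Mki67, Top2a, Cdk1 and Ccnb1 rose in all 17 alternatives that tested them (limma adjusted p between 0.000411 and 0.0288), and Ccnd1 fell in all 18 (limma adjusted p between 0.000575 and 0.0372). Sizes moved with the pseudocount: the log2 change of Mki67 was 1.93 with 0.1 and 0.42 with 5, that of Top2a 1.97 and 0.42, that of Cdk1 1.85 and 0.58, and that of Ccnb1 1.53 and 0.31. The direction of Pcna was reversed when rescaled to TPM, at -0.13 (limma adjusted p = 0.619). Pcna passed the test at 0.27 when rescaled without mitochondrial and the most abundant genes (limma adjusted p = 0.0382). Over all 18 alternatives the limma adjusted p of Pcna ran from 0.0382 to 0.927. The median change of all genes tested was -0.12 in the TPM setting and 0.22 in the setting where Pcna passed. At a mean of at least 5 FPKM, 0 members were called higher, because the 4 mitotic genes lie under that filter, and 3672 genes were called, 2068 higher and 1604 lower, with fewer genes tested. Rescaled to TPM, 2012 genes were called higher. That scaling divides each library by its column total, which was larger in FSGS, and so lowers FSGS values relative to controls.

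Some ratio differences changed sign: Mki67 to Top2a ranged from -0.11 (without control replicate 1) to 0.048 (without control replicate 2) when single libraries were left out, and was 0.027 and 0.028 without control replicate 3 and FSGS replicate 2. Mki67 to Cdk1 was 0.075 with pseudocount 0.1 and 0.16 with none, and Top2a to Cdk1 0.12 and 0.21; the ratio without a pseudocount was added after seeing the data. Adding the replicate number as a block gave 6900 called genes, and no member's call changed (limma adjusted p of Pcna = 0.237). Libraries with the same number deviated from their group means with correlations of 0.13, 0.03 and 0.02 for numbers 1, 2 and 3, so the numbers were not taken as pairs. Depth, and so its limit on the 4 low genes, is unknown.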
